A study of Mus musculus with 8 samples.

Results

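Krüppel-like factors (KLFs) are zinc finger transcription factors, and 9 of them were followed here in single cells of the mouse lung, namely Klf2, Klf3, Klf4, Klf6, Klf7, Klf9, Klf10, Klf12 and Klf13. They are 9 of 33027 genes in the deposited matrix. The list was chosen by a measured value in part, the higher Klf12 level in general capillary (gCap) endothelial cells of smoke-exposed mice. Other earlier results of these data were known when it was chosen. The smoke differences in gCap cells are therefore given as values with no p. The number of members called there is printed beside its background, and again under the alternatives at the end, and nothing is read from it. The comparison of aerocytes with gCap cells, which rests in part on these values, leaves out Klf12. The 8 mice were C57BL/6 mice that carried Sftpc-CreERT2 and the Rosa26-mTmG reporter, in which tamoxifen turns on eGFP in cells that express Sftpc, while other cells keep tdTomato. All of them received tamoxifen as young adults, and then breathed either smoke of 3R4F cigarettes (CS, n = 4, mice C2, C5, D2 and D5) or room air (RA, n = 4, mice F1, F3, M1 and M3) for 10 months. Right lungs were dissociated 1 day after the last exposure, and CD45-positive and CD45-negative cells were separated and mixed again, so that shares of cells follow that mixing. The Cre acts in Sftpc-expressing epithelium and marks cells without altering a KLF gene.

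KLFs share a C-terminal DNA-binding domain of C2H2 zinc fingers that recognises GC boxes and CACCC elements, and differ in the N-terminal part that recruits coactivators or corepressors. KLF2 and KLF4 are known for keeping endothelium quiescent and antithrombotic under laminar flow, where the kinases MEKK3 and ERK5 and the transcription factor MEF2 switch them on. KLF6 and KLF10 are early response genes of injury and of TGF-beta signalling, KLF9 is a target of the glucocorticoid and thyroid hormone receptors, KLF7 is known from neurons, and KLF3 and KLF12 bind the corepressor CtBP. KLF13 is known from lymphocytes, where it acts on the chemokine gene Ccl5.

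The matrix held 41106 cells, of which 40074 were used after the authors' multiplets (1025) and cell cycle cells (7) were left out, 20330 from CS and 19744 from RA mice. Each mouse gave between 2553 and 6371 cells and between 31094695 and 52753531 UMIs, and 190 cell barcodes occurred in more than 1 library. The 4 CS libraries went against their labelled sex: C2 and C5, labelled male, held Xist, and D2 and D5, labelled female, held Ddx3y, while the 4 RA libraries matched. Mouse names are therefore used in place of sex, and since this concerns every CS library no result can be given without them. The authors' cell type labels were kept, and 35 of 38 markers were highest in the type they were listed for, with Fbln5, Scgb3a2 and Nr4a1 as the exceptions. Values are transcripts per 10000 (UMIs of a gene per 10000 UMIs of the cell), averaged over the cells of a type in each mouse. Of 32 cell types, 22 had at least 20 cells in at least 2 mice of each group.

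The members differ in the size of their genes, and the authors counted spliced and unspliced UMIs together. Klf2 spans 2.62 kb (GRCm38 chromosome 8, 72319033 to 72321656), Klf4 5.32 kb (chromosome 4, 55527143 to 55532466), Klf6 8.91 kb (chromosome 13, 5861482 to 5870394) and Klf10 9.24 kb (chromosome 15, 38291463 to 38300706). Klf9 spans 26.9 kb (chromosome 19, 23141226 to 23168134), Klf3 29.5 kb (chromosome 5, 64803388 to 64832901) and Klf13 52.6 kb (chromosome 7, 63886351 to 63938915). Klf7 spans 92.8 kb (chromosome 1, 64029447 to 64122282) and Klf12 414 kb (chromosome 14, 99870632 to 100284679). Levels are compared between cell types and between mice, never between genes.

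Promoters of 8 of the 9 members were taken from RefSeq (GRCm38.p6), as 250 bases before to 50 bases after the gene's start. The promoters of Klf2, Klf4, Klf9 and Klf12 are shown because the differences described below turn on these genes. They read 5′ to 3′ along the gene, and capitals mark matches, on either strand, to a MEF2 site, the GC box GGGCGG, the KLF element CACCC, the E-box CACGTG, which clock proteins bind, or CCAAT.
Klf2 (chr8:72318812-72319111, plus strand): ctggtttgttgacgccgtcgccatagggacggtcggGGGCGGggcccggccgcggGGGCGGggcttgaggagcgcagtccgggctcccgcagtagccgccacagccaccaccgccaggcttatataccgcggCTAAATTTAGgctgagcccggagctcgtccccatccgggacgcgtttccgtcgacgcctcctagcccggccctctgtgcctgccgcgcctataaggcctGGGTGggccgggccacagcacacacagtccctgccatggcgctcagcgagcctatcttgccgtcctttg
Klf4 (chr4:55532426-55532725, minus strand): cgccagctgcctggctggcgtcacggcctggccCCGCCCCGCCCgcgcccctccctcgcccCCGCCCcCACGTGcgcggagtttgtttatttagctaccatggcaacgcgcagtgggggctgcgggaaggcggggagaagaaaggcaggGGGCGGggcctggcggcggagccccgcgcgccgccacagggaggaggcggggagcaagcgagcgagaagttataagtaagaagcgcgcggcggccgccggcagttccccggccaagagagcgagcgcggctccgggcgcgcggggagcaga
Klf9 (chr19:23140976-23141275, plus strand): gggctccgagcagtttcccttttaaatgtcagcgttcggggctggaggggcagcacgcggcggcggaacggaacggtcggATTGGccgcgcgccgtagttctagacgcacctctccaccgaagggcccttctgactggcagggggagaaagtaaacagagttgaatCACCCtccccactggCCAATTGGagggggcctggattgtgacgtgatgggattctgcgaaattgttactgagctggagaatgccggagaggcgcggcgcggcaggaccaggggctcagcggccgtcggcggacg
Klf12 (chr14:100149747-100150046, minus strand): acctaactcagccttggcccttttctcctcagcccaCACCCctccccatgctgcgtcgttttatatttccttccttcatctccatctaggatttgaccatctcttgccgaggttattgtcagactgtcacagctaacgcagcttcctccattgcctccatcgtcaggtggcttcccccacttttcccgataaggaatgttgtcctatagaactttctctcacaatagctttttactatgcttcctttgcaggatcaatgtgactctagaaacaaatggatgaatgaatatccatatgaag

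The MEF2 match lies 118 bases before the start of Klf2, and none of the other 7 promoters held one. A MEF2 match occurred in 3.19% of all 32851 promoters of the table. GGGCGG occurred at 2 places in Klf2 and 4 in Klf4, and in 35.7% of all promoters. CACGTG was found in Klf4 and in Klf6, 182 and 43 bases before the start, and in 7.15% of all promoters. CCAAT occurred at 3 places in Klf9 and 4 in Klf6, and in 37.4% of all promoters, and CACCC in 57.5%. The Klf12 window has 45.7% G and C, against 69.3% for Klf2 and 74.3% for Klf4, and lies inside the annotated gene, downstream of its outermost start. A match in these windows describes letters only.

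**Figure D1:**
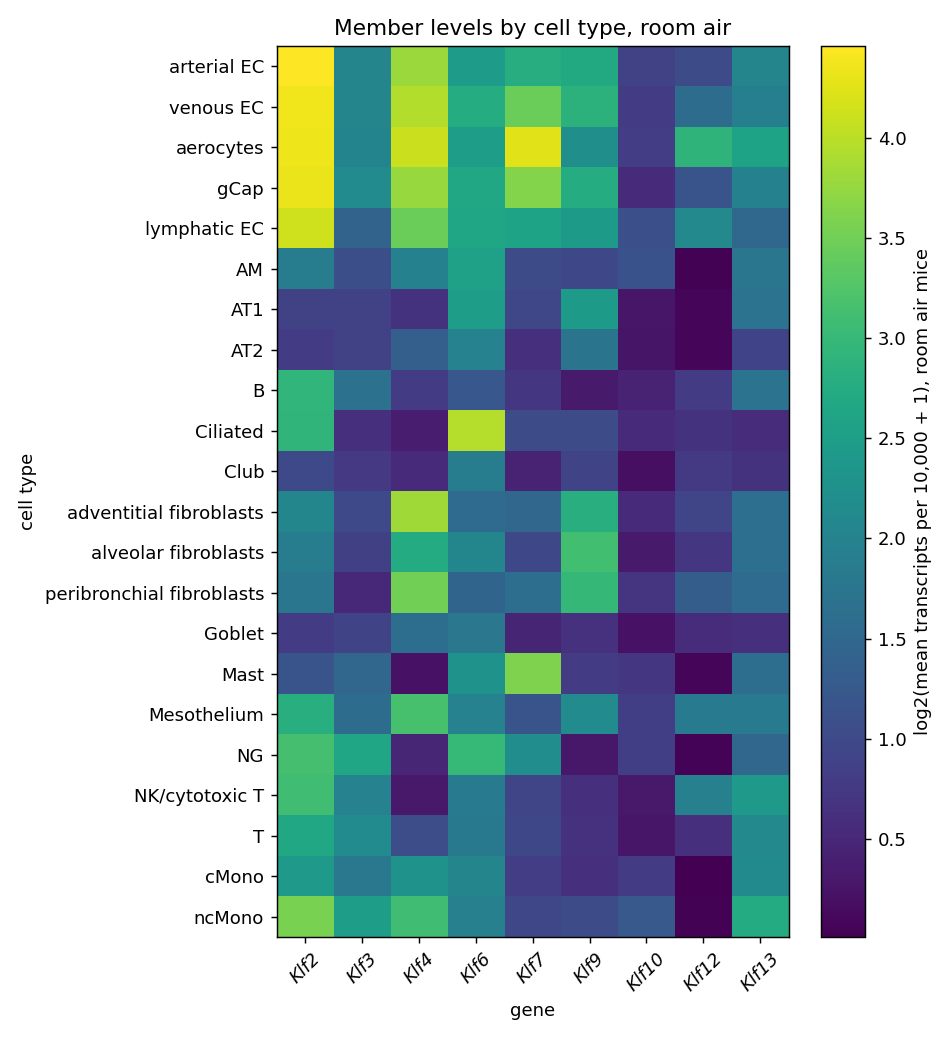
Levels of the 9 members (columns) in 22 cell types (rows) of room air mice, as log2 of the mean transcripts per 10000 plus 1 (colour scale). Klf2 is brightest in the 5 endothelial rows, where its means lie between 16.6 and 21.04, Klf6 in ciliated cells and Klf12 in aerocytes.

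In RA mice, Klf2 was highest in the 5 endothelial types, though not confined to them. Its level was 21.04 ± 3.78 transcripts per 10000 in arterial, 19.7 ± 4.28 in venous, 19.3 ± 2.92 in aerocyte, 19.2 ± 2.50 in gCap and 16.6 ± 3.16 in lymphatic endothelial cells (SD, n = 4 mice). Neighbours in this order did not differ beyond their spread, while arterial cells lay above lymphatic cells by more than the larger SD. All 5 types stood above the next type, non-classical monocytes (10.8 ± 4.43, n = 3), by more than the larger SD. The cells labelled NG (7.88 ± 1.30) and NK and cytotoxic T cells (7.57 ± 2.79, n = 3) followed. B cells (6.68 ± 1.95) and ciliated cells (6.615 ± 2.06) came after them. The lowest level was in AT2 cells, at 0.718 ± 0.200. Klf4 was highest in aerocytes (16.3 ± 2.698) and venous cells (14.5 ± 1.61), followed by a type outside the endothelium, adventitial fibroblasts (13.2 ± 0.424). Arterial (12.8 ± 1.35) and gCap cells (12.8 ± 1.19) came next, and no neighbours in this order differed beyond their spread.

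Klf7 and Klf12 were both highest in aerocytes, the capillary cells that face the alveolar gas. Klf7 reached 18.1 ± 0.280 there, beyond the spread of the next types, gCap cells at 11.4 ± 2.80 and mast cells at 11.2 ± 1.13 (n = 3). Klf12 reached 6.53 ± 2.01 in aerocytes, beyond the spread of lymphatic endothelium (3.32 ± 0.875) and of NK and cytotoxic T cells (2.87 ± 1.18, n = 3), and it was 0.00619 ± 0.00715 in classical monocytes. In gCap cells the RA level of Klf12 was 1.24 ± 0.327.

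The other members peaked elsewhere. Klf6 stood out in ciliated cells, at 14.7 ± 2.97, beyond the spread of the cells labelled NG (6.96 ± 1.13). Klf9 was highest in alveolar fibroblasts (7.63 ± 0.673), followed within the spread by peribronchial fibroblasts (6.82 ± 1.33, n = 3). Venous endothelium came next (6.31 ± 0.118), below alveolar fibroblasts by more than the larger SD. Klf3 was highest in the cells labelled NG (5.28 ± 0.763) and in non-classical monocytes (4.69 ± 0.561, n = 3). Klf13 (5.73 ± 1.56, n = 3) and Klf10 (1.39 ± 0.427, n = 3) were highest in non-classical monocytes, followed within the spread by aerocytes for Klf13 (5.06 ± 0.659) and by alveolar macrophages for Klf10 (1.202 ± 0.296).

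Across the 22 types, the members' profiles were alike to different degrees. Pearson's r of log2 levels was 0.763 for Klf4 and Klf9, 0.6998 for Klf2 and Klf3, 0.626 for Klf2 and Klf7, 0.610 for Klf2 and Klf12 and 0.522 for Klf2 and Klf4, and -0.274 for Klf3 and Klf9. Among all genes, the profile most like that of Klf12 belonged to A330023F24Rik (r = 0.874), Sema6a (0.835) and Mxd4 (0.827). The nearest to Klf9 were Trip10 (0.957), Thra, a thyroid hormone receptor (0.943), and Zfp383 (0.941), and the nearest to Klf7 were Arap3 (0.910), Hecw2 (0.888) and Numb (0.876). The nearest to Klf4 were Arsa (0.912), Phf11d (0.883) and Nav1 (0.882), and the nearest to Klf2 were Mark4 (0.8288), Stim2 (0.8285) and Pak1ip1 (0.819). Klf3 was nearest to Trim30a (0.875), H2-D1 (0.874) and Adgre5 (0.840), and Klf13 to Usp25 (0.868), B2m (0.851) and Yy1 (0.840). Klf6 was nearest to Lasp1 (0.852), Nat9 (0.754) and Gm17383 (0.745), and Klf10 to Tfe3 (0.820), Akt1 (0.816) and Gab2 (0.811). These r describe 22 points that share the same 8 libraries and differ in depth, and they carry no test.

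**Figure D2:**
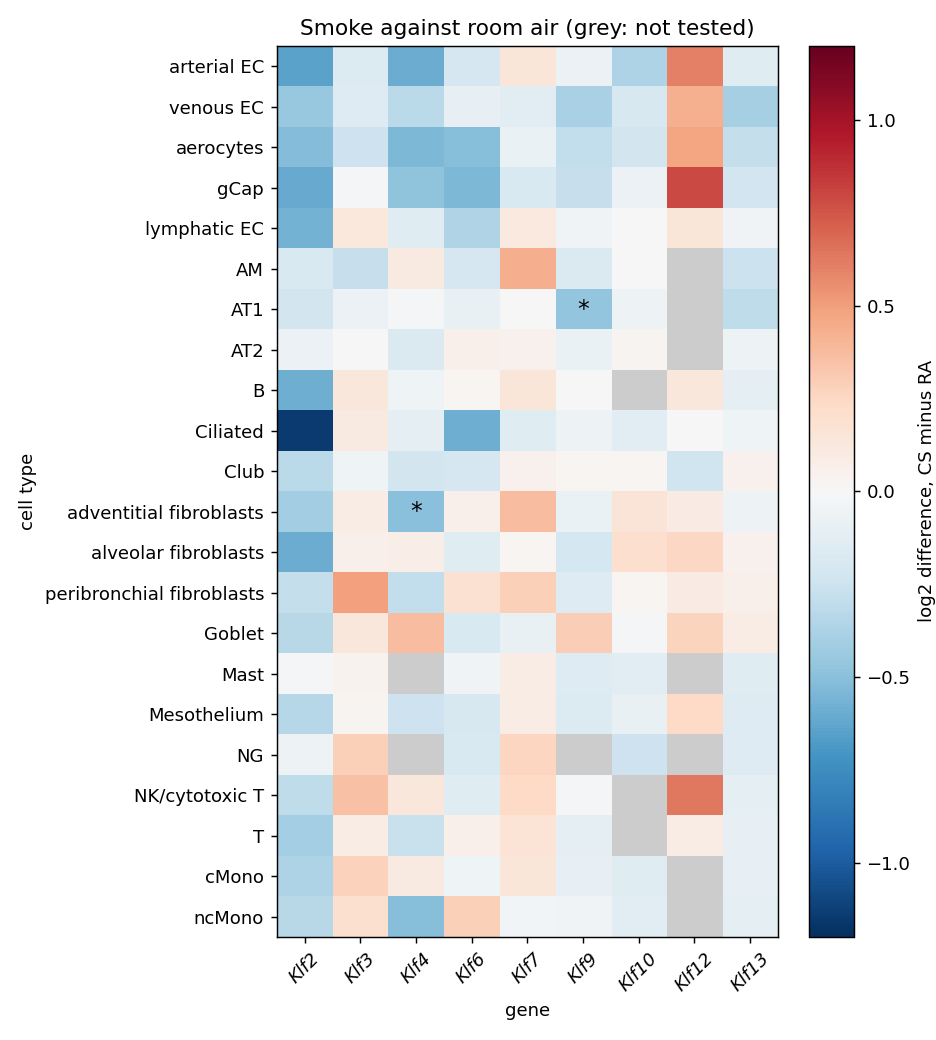
Log2 difference between CS and RA mice (colour scale, red for higher in CS) for the 9 members (columns) in 22 cell types (rows), on log2 of transcripts per 10000 plus 1. Grey pairs were not tested, and the stars mark the 2 pairs outside gCap cells with an adjusted p under 0.05, Klf9 in AT1 cells and Klf4 in adventitial fibroblasts. The Klf2 column is blue throughout, from -1.15 to -0.02.

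Smoke and room air were compared in each cell type with limma on log2 of the per-mouse mean plus 1, which understates the change of low genes, with Benjamini-Hochberg adjustment over all genes tested in that type. Genes with a transcript in 10% or more of a type's cells, in CS or in RA, were fitted, and 185 of 198 member and type pairs passed. Klf12 passed in 15 types, Klf10 in 19, Klf4 in 20, Klf9 in 21 and the others in all 22. Outside gCap cells, 2 of 176 pairs (1.14%) passed an adjusted p of 0.05, Klf9 in AT1 cells and Klf4 in adventitial fibroblasts, both lower in CS. Over all genes in these 21 types, limma called 0.873% of pairs in either direction and 0.381% lower in CS. The share of members rests on 2 pairs only. No member was called higher there by limma, edgeR or DESeq2, which called 0.491%, 0.503% and 1.21% of all gene and type pairs higher, so few or no pairs would be called at the background share. At an unadjusted limma p under 0.05, 14 pairs were higher (7.95%, against 8.47% of all gene and type pairs). In the other direction edgeR called 5 pairs, where it called 0.564% of all gene and type pairs lower, and DESeq2 18, where it called 1.26% lower. At an unadjusted limma p under 0.05 stood 45 of 176 pairs (25.6%, against 14.4% of all gene and type pairs), and 31 of them were lower in CS (17.6%, against 5.95%). In the 16 types with 4 mice in each group, CS and RA mice did not overlap in 15 of 135 pairs that were lower in CS (11.1%, against 4.13% of all gene and type pairs) and in 4 that were higher (2.96%, against 5.62%). Cell types come from the same 8 mice, so these pairs are not independent. The members were also chosen with earlier results of these data known, so no support is drawn from these shares. Of the 31 lower pairs, Klf2 gave 10 and Klf4 6. Both genes are shorter than 10 kb, as are Klf6 and Klf10, which gave 2 and 4. Genes of that length tended to be lower in CS, as described below. The part of gene length in these counts was not tested.

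Klf9, the hormone-responsive member, fell in AT1 cells, the flat epithelium of gas exchange. It was 3.55, 2.91, 2.54 and 2.63 transcripts per 10000 in the CS mice C2, C5, D2 and D5, and 4.69, 4.69, 3.70 and 4.50 in the RA mice F1, F3, M1 and M3. The groups did not overlap. The log2 difference was -0.47 (SE 0.105), with an adjusted p of 0.0296 by limma, in a type where 2.38% of all genes were called. Leaving out C5, D2, D5, F3 or M3 raised the adjusted p to between 0.0606 and 0.0912, with log2 differences from -0.47 to -0.42, and it was 0.0663 with adjustment over all types together and 0.155 without the filter on genes.

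Of the other genes in AT1 cells, 2 of the 4 glucocorticoid targets tested fell as well and none was called higher, with 3 of the 4 log2 differences below 0 and 1 above. Tsc22d3, which encodes the glucocorticoid-induced leucine zipper GILZ, was 1.53 in CS and 5.10 in RA mice (log2 difference -1.23, adjusted p = 0.000758 by limma). Zbtb16, a transcription factor also known as PLZF, was 0.611 and 2.73 (-1.19, adjusted p = 0.000215). The summed level of the 4 targets was between 2.81 and 4.03 in CS and between 6.67 and 15.3 in RA mice, with none of the 4 at 0. Klf15, another glucocorticoid-responsive KLF, also fell in AT1 cells, from 1.32 in RA to 0.385 in CS (-0.74, adjusted p = 0.000758), as it did in alveolar fibroblasts (-0.44, adjusted p = 0.00738) and ciliated cells (-0.24, adjusted p = 0.00572). Whether these changes have a part in that of Klf9 was not tested. The 1 endothelial KLF2 and KLF4 target tested in AT1 cells, the prostaglandin transporter gene Slco2a1, rose from 0.410 to 1.32 (0.72, adjusted p = 0.00262 by limma, and 0.0680 without the filter on genes).

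Some clock and early response genes passed the test in the same cells. Of 9 clock genes tested in AT1 cells, Dbp (0.86, adjusted p = 0.000758 by limma) and Nr1d1 (0.65, adjusted p = 0.0203) were higher in CS, and Arntl, the gene of the clock activator BMAL1, was lower (-0.17, adjusted p = 0.0294). The summed level of the 12 clock genes in the matrix did not overlap, between 9.10 and 11.2 in CS and between 7.01 and 8.09 in RA mice. Here and below, this sum joins genes that moved in opposite directions, so it does not show that they rose together. In AT1 cells 6 of the 9 tested were higher and 3 lower. The hours at which the mice were killed are not given in the sources used here. Of 15 early response genes, Btg2 (-1.05, adjusted p = 0.000758 by limma) and Dusp1, a glucocorticoid target too (-0.72, adjusted p = 0.0319), fell, and the other 13 did not pass. The summed early response level overlapped, between 34.4 and 45.01 in CS and between 42.5 and 56.3 in RA mice.

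Klf13 in AT1 cells was 1.57, 1.61, 1.85 and 1.55 in CS mice and 2.37, 1.98, 2.25 and 2.48 in RA mice, again without overlap. The log2 difference of -0.30 (SE 0.0793) had an adjusted p of 0.0553 by limma. In venous endothelium, Klf9 was 4.96, 4.17, 4.65 and 4.60 in CS and 6.34, 6.39, 6.36 and 6.13 in RA mice, and Klf13 was 2.02, 1.62, 2.24 and 1.65 against 2.82, 2.50, 2.76 and 3.13. Neither pair overlapped, and neither passed with limma (adjusted p = 0.155 for Klf9 and 0.127 for Klf13). In goblet cells Klf9 had the opposite sign, with 0.895, 0.849, 0.927 and 1.01 in CS and 0.439, 0.583, 0.540 and 0.713 in RA mice (0.29, SE 0.0794, adjusted p = 0.159 by limma). Under 19 alternatives this log2 difference ran from 0.188 to 0.623, and it passed in 0 of them.

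**Figure D3:**
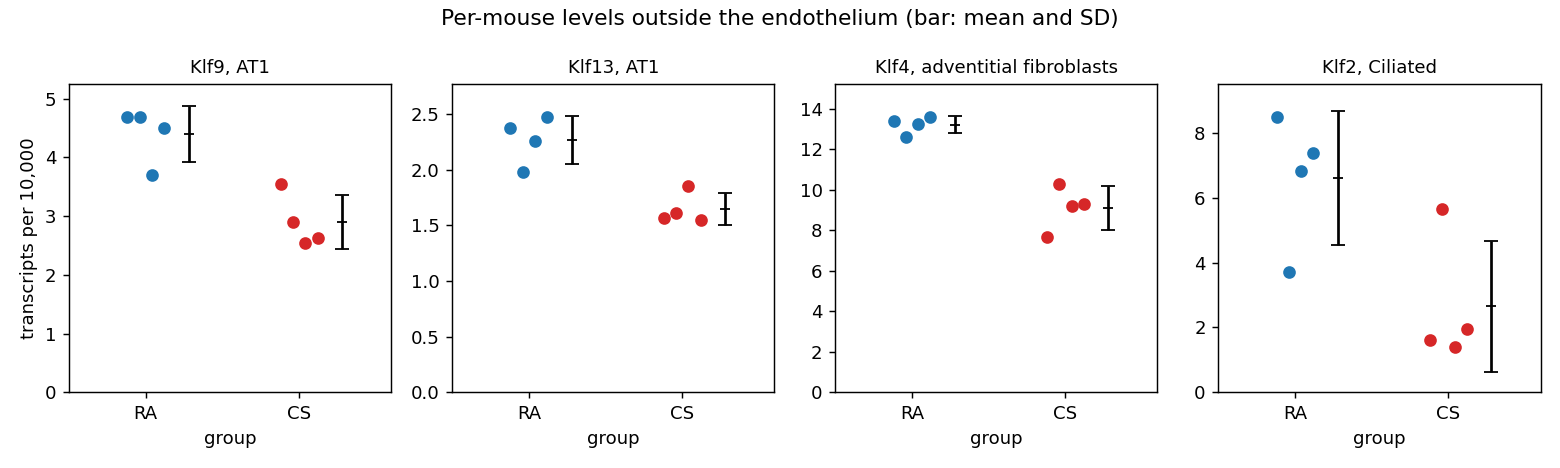
Transcripts per 10000 in each mouse (points, blue for RA and red for CS) with mean and SD (bars), for Klf9 and Klf13 in AT1 cells, Klf4 in adventitial fibroblasts and Klf2 in ciliated cells. The CS points lie below all RA points in the first 3 panels, while in ciliated cells the CS mouse C5, at 5.67, lies above the lowest RA mouse, at 3.71.

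Klf4 fell in adventitial fibroblasts, the fibroblasts of the sheaths around vessels and airways. It was 7.66, 10.3, 9.21 and 9.30 in CS mice and 13.4, 12.6, 13.3 and 13.6 in RA mice, with no overlap. The log2 difference was -0.50 (SE 0.118), with an adjusted p of 0.0439 by limma, in a type where 3.1% of all genes were called. The call was lost when any 1 of the 8 mice was left out, with adjusted p from 0.0659 to 0.107 and log2 differences from -0.55 to -0.43. It was also lost with sequencing lane as a block (adjusted p = 0.139), without the filter on genes (0.143), with adjustment over all types together (0.0908) and with the gene-length trend described below removed (-0.44, adjusted p = 0.0919).

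In the same fibroblasts, Thbd, the thrombomodulin gene that KLF2 and KLF4 activate in endothelium, fell from 3.84 in RA to 2.53 in CS mice (-0.46, adjusted p = 0.0370 by limma), the only one of 6 tested endothelial targets to pass. Atf3 was the only early response gene of 15 to pass (-0.56, adjusted p = 0.0360). Tsc22d3 fell (-0.80, adjusted p = 0.0275), and the clock genes Dbp (0.95, adjusted p = 0.0236), Tef, Hlf and Nr1d2 rose. The summed early response level overlapped between CS (149 to 184) and RA (162 to 201), and the clock sum did not (7.96 to 11.96 against 4.34 to 6.49). Their part in the Klf4 difference was not tested. Klf2 in these cells was 1.70, 1.93, 2.71 and 2.10 in CS and 2.87, 3.69, 2.78 and 3.23 in RA mice (-0.42, SE 0.115, adjusted p = 0.0677), and Klf7 was 2.71, 2.94, 2.38 and 2.18 against 1.64, 2.46, 1.84 and 1.18 (0.37, SE 0.130, adjusted p = 0.126).

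**Figure D4:**
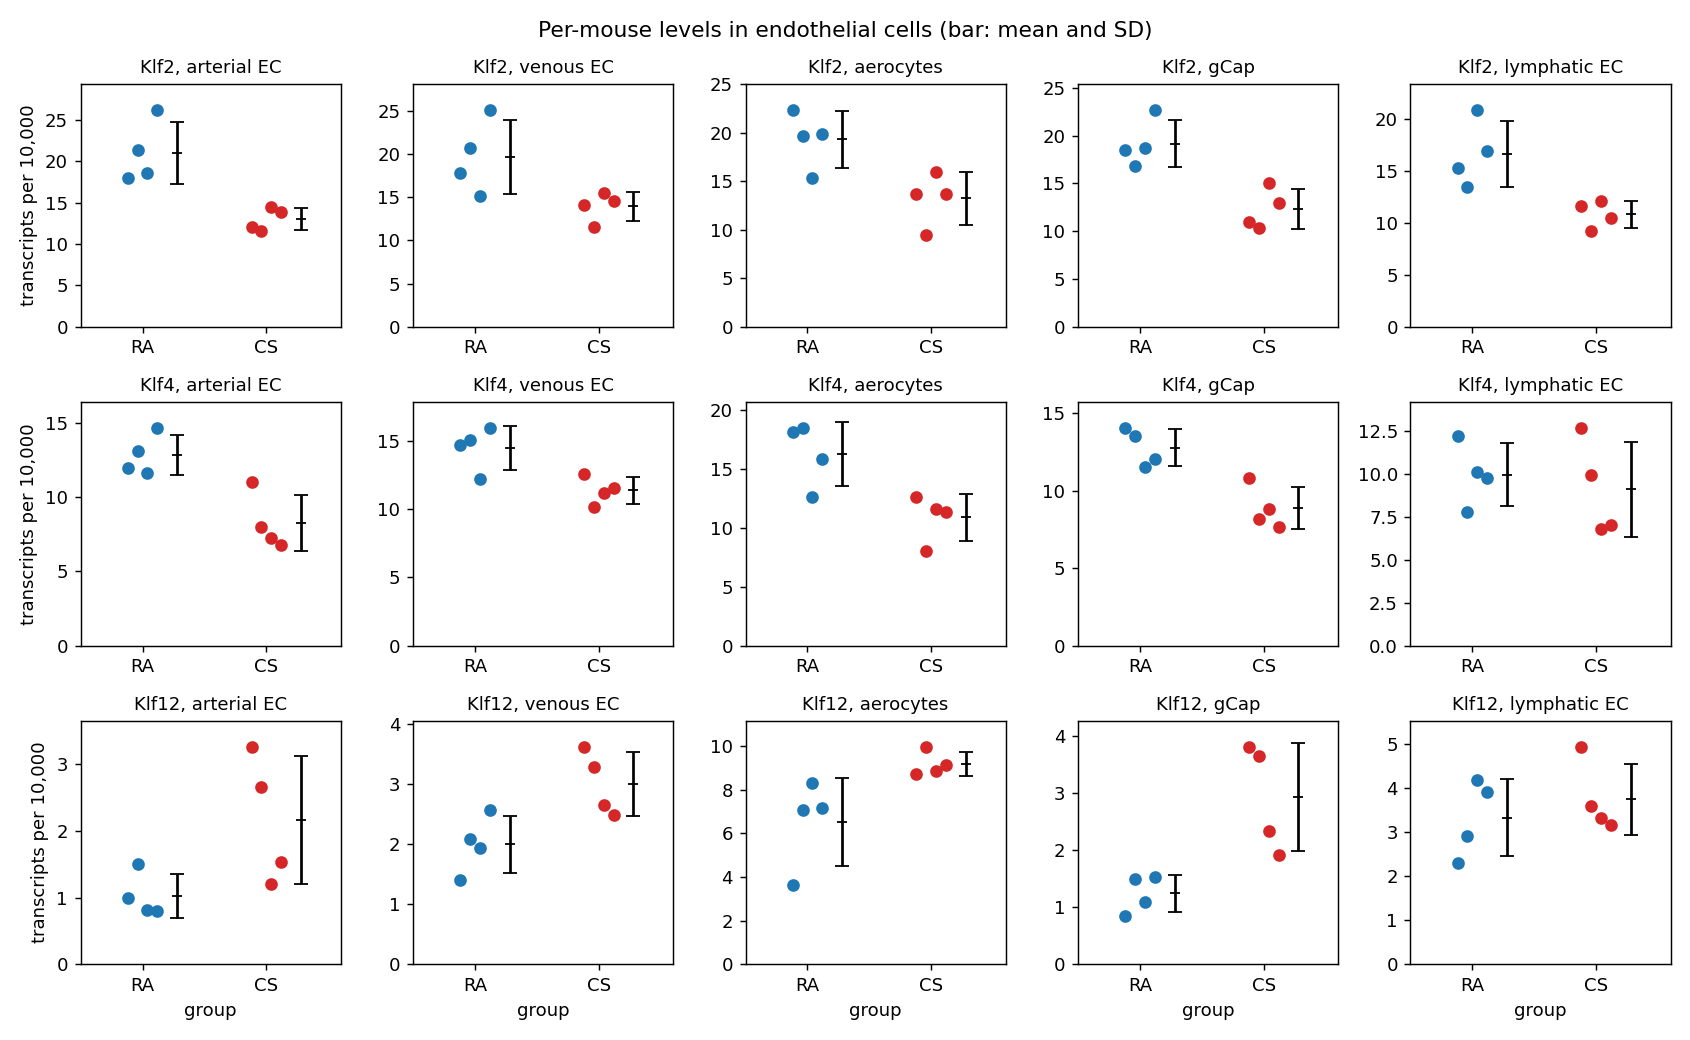
Transcripts per 10000 of Klf2, Klf4 and Klf12 (rows) in 5 endothelial types (columns) in each mouse (points, blue for RA and red for CS), with mean and SD (bars). In gCap cells CS and RA mice do not overlap for any of the 3 genes, with Klf2 at 10.4 to 15.0 against 16.8 to 22.7 and Klf12 at 1.93 to 3.81 against 0.856 to 1.54.

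In gCap cells, the progenitor-like capillary cells, 8 members were lower and 1 was higher in CS. Klf12 was 3.81, 3.66, 2.35 and 1.93 in CS mice and 0.856, 1.49, 1.09 and 1.54 in RA mice. All CS mice were above all RA mice, with a ratio of means of 2.36 and a log2 difference of 0.79 (SE 0.168). C2 and C5, the CS libraries that held Xist, were above D2 and D5, and in RA mice F1 and F3, which also held Xist, were the lowest and the second highest. Klf2 was 11.0, 10.4, 15.0 and 12.9 in CS and 18.5, 16.8, 18.7 and 22.7 in RA mice (log2 difference -0.60, SE 0.141). Klf4 was 10.8, 8.20, 8.84 and 7.68 against 14.0, 13.5, 11.5 and 12.02 (-0.48, SE 0.124). By limma, 3 of the 9 members were called in gCap cells, where 10.3% of all genes were called, and since this contrast helped to choose the members nothing is read from the count.

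Klf6 in gCap cells was steady in CS mice, at 3.09, 3.29, 3.15 and 3.13, and spread in RA mice, at 8.41, 4.94, 3.18 and 4.79. The RA mouse F1, with the highest Klf6 in gCap cells, had the lowest Klf12 in gCap cells, aerocytes, venous and lymphatic endothelium. In arterial cells F1 had the highest Klf6 (6.20) too, but its Klf12 (0.994) was above M1 (0.814) and M3 (0.797). In lymphatic cells its Klf6 (3.93) was below M1 (5.62) and M3 (7.88). F1 also had the highest summed level of the 15 early response genes in gCap cells, 181. There the other RA mice lay between 130 and 139 and the CS mice between 67.4 and 102. All 15 early response genes were lower in gCap cells of CS mice and 6 were called, with a median log2 difference of -0.63 against 0.01 over all genes. None of the 15 was at 0. Of 9 clock genes tested in gCap cells 4 were called higher (median log2 difference 0.12), with 7 log2 differences above 0 and 2 below. The summed level of the 12 clock genes in the matrix did not overlap, between 7.15 and 10.3 in CS and between 4.08 and 5.75 in RA mice. Of 4 glucocorticoid targets 1 was called lower (median -0.23), and their sum did not overlap either, between 9.27 and 13.5 in CS and between 13.6 and 19.6 in RA mice. The part of these lists in the KLF values was not tested.

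Genes upstream and downstream of endothelial KLF2 and KLF4 were listed as well. Of 11 tested genes of the MEKK3, ERK5 and MEF2 pathway and the CCM complex that restrains it, 1 was called in gCap cells, with a median of 0.10 against 0.01 over all genes. That gene was Mef2c, at 2.53 in CS and 1.58 in RA mice (log2 difference 0.45). Of the 11, 8 were higher in CS, and the summed level of all 12 listed genes did not overlap, between 26.6 and 30.5 in CS and between 19.6 and 26.3 in RA mice. The list joins genes of the pathway with genes that restrain it. These counts and sums, here and in the other types, therefore give no direction for the pathway. The RA mouse F1 stood apart at 19.6, while the other RA mice, between 25.8 and 26.3, lay close below the lowest CS mouse. In lymphatic cells 12 of 12 log2 differences were above 0, with sums of 22.6 to 25.7 against 17.1 to 20.1, while in aerocytes, arterial and venous cells the sums overlapped. Of 7 tested endothelial targets none was called in gCap cells. The summed level of all 11 listed targets overlapped, between 43.8 and 52.5 in CS and between 38.8 and 51.4 in RA mice. Of 5 corepressor genes, Hdac1 was called lower (0.580 in CS and 0.780 in RA mice). None of these calls in gCap cells, nor those of the early response, clock and glucocorticoid lists, passed with sequencing lane as a block, where each lane held 1 CS and 1 RA mouse, without the filter on genes or without D5. In these fits limma called 0 of 6556, 0 of 30479 and 0 of 6536 genes in gCap cells, with 2121, 4176 and 1643 at an unadjusted p under 0.05. With the filter, all 8 mice and no lane block, limma called 412 genes higher and 260 lower, and DESeq2 878 higher and 859 lower.

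The other endothelial types were compared with the same test. In aerocytes, Klf12 was 8.70, 9.94, 8.86 and 9.11 in CS mice and 3.63, 7.05, 8.28 and 7.17 in RA mice. The groups did not overlap, the ratio of means was 1.40, and the log2 difference of 0.48 (SE 0.186) had an adjusted p of 0.153 by limma. Without F1, the RA mouse at 3.63, the log2 difference was 0.26 (adjusted p = 0.116). In arterial cells Klf12 was 3.26, 2.66, 1.198 and 1.54 against 0.994, 1.4996, 0.814 and 0.797 (0.60, SE 0.176, adjusted p = 0.119), and in venous cells 3.62, 3.28, 2.66 and 2.48 against 1.41, 2.08, 1.93 and 2.56 (0.42, SE 0.134, adjusted p = 0.189). Both pairs overlapped. In lymphatic cells it was 4.92, 3.59, 3.32 and 3.15 against 2.29, 2.91, 4.18 and 3.89 (0.14, SE 0.169, adjusted p = 0.809), a difference that was 0.02 without F1, 0.03 without C2 and 0.24 without M1. In C2 and C5, Klf12 was above D2 and D5 in arterial, venous and lymphatic cells too, but not in aerocytes, where C2 was the lowest CS mouse.

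Outside the endothelium, Klf12 did not pass in any type. In NK and cytotoxic T cells it was 5.39, 4.67, 4.201 and 4.98 in CS mice and 4.02, 2.92 and 1.67 in the 3 RA mice with enough cells (0.63, SE 0.169, adjusted p = 0.2997 by limma). Without M3, the RA mouse at 1.67, the log2 difference was 0.39 (adjusted p = 0.613), and with at least 50 cells per mouse it was 0.37 (adjusted p = 0.658). In club cells it had the opposite sign, with 0.370, 0.571, 0.378 and 0.415 against 0.678, 0.659, 0.761 and 0.677 (-0.24, SE 0.0522, adjusted p = 0.108 by limma). With summed counts the log2 difference in club cells was -0.135 (adjusted p = 0.197 by limma). In both types the groups did not overlap.

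Klf2 was lower in CS in 22 of 22 types, with log2 differences from -1.15 to -0.02 and a median of -0.36. Of 1704 genes tested in all 22 types, 30 (1.76%) were lower in each. With 1 mouse left out, Klf2 was lower in 20 of 22 types (without D5) or 21 (without C2, F1, F3 or M1), and in 22 without C5, D2 or M3. Averaged over the 17 types with 4 mice in each group, its log2 level was 2.03, 2.34, 2.20 and 2.11 in CS mice and 2.60, 2.41, 2.71 and 2.73 in RA mice, which did not overlap. No type outside gCap cells passed for Klf2 in the main limma fit. At an unadjusted p under 0.05 stood 10 of 21, all lower, against 5.95% of all gene and type pairs that were lower. Under 19 alternatives it passed in 5 in arterial cells, 4 in alveolar fibroblasts, 3 in adventitial fibroblasts and 2 each in aerocytes and ciliated cells. In venous and lymphatic cells it passed in 0. In arterial cells it was 12.1, 11.6, 14.4 and 13.9 in CS and 18.0, 21.4, 18.6 and 26.2 in RA mice (-0.64, SE 0.151, adjusted p = 0.0631), and in lymphatic cells 11.6, 9.18, 12.1 and 10.4 against 15.2, 13.4, 20.8 and 16.9 (-0.56, SE 0.170, adjusted p = 0.332). Neither overlapped. In aerocytes it was 13.7, 9.50, 16.0 and 13.7 against 22.4, 19.7, 15.3 and 19.9 (-0.52, SE 0.162, adjusted p = 0.0982), and in venous cells 14.0, 11.5, 15.5 and 14.6 against 17.8, 20.7, 15.1 and 25.1 (-0.46, SE 0.173, adjusted p = 0.254). The CS mouse D2 overlapped with the RA mouse M1 in both.

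The size of the Klf2 difference was largest in ciliated cells, at 1.599, 5.67, 1.39 and 1.94 in CS and 8.51, 3.71, 6.84 and 7.40 in RA mice (-1.15, SE 0.311, adjusted p = 0.0625 by limma). Klf6, which was highest in these cells, was 5.99, 14.3, 9.06 and 9.64 against 19.0, 12.4, 13.2 and 14.2 (-0.59, SE 0.209, adjusted p = 0.126). In both cases C5 was the highest CS mouse and F3 the lowest RA mouse. Of 15 early response genes, Btg2 (-0.74, adjusted p = 0.0289 by limma), Ier2 (-0.69, adjusted p = 0.0159) and Fos (-0.70, adjusted p = 0.0399) fell in ciliated cells, and the rest did not pass. Over all genes limma called 212 of 11077 lower and 301 higher there. The summed early response level overlapped, between 59.65 and 137.4 in CS and between 102 and 150.6 in RA mice. In alveolar fibroblasts Klf2 was 1.13, 2.14, 1.23 and 1.24 against 2.02, 1.92, 3.38 and 3.47 (-0.59, SE 0.160, adjusted p = 0.0754).

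Klf4 in arterial cells was 11.0, 7.99, 7.22 and 6.74 in CS and 11.97, 13.1, 11.6 and 14.6 in RA mice, without overlap (-0.60, SE 0.157, adjusted p = 0.0863 by limma). In aerocytes it was 12.6, 8.04, 11.6 and 11.4 against 18.1, 18.4, 12.6 and 15.8 (-0.54, SE 0.158, adjusted p = 0.0889), and in venous cells 12.6, 10.2, 11.2 and 11.6 against 14.7, 15.1, 12.2 and 15.9 (-0.32, SE 0.140, adjusted p = 0.309), with C2 and M1 as the mice that overlapped.

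The remaining members in aerocytes were also lower in CS. Of the 9 members, 8 had an unadjusted p under 0.05 in aerocytes, where 24.5% of all genes did, and none passed after adjustment by limma or edgeR, while DESeq2 called 6, with 10.1% of all genes called by DESeq2 in these cells. Klf3 was 2.31, 2.57, 2.27 and 2.45 in CS and 2.80, 3.38, 3.07 and 2.94 in RA mice (-0.25, SE 0.0750, adjusted p = 0.0930). Klf6 was 2.92, 2.50, 3.15 and 3.01 against 6.72, 4.93, 3.09 and 3.97 (-0.51, SE 0.163, adjusted p = 0.109). Klf10 was 0.448, 0.510, 0.516 and 0.515 against 0.497, 0.858, 0.861 and 0.792 (-0.22, SE 0.0658, adjusted p = 0.0921). Klf7, which marks these cells, was 17.4, 16.7, 16.4 and 17.8 against 18.2, 18.4, 18.1 and 17.7 (-0.08, SE 0.0950, adjusted p = 0.604). Klf10 in arterial cells was 0.430, 0.392, 0.369 and 0.464 against 0.994, 0.599, 0.585 and 1.19 (-0.37, SE 0.107, adjusted p = 0.119), and in alveolar fibroblasts it had the opposite sign, with 0.396, 0.406, 0.353 and 0.617 against 0.223, 0.332, 0.261 and 0.186 (0.21, SE 0.0617, adjusted p = 0.0961).

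Listed genes called in aerocytes, arterial and ciliated cells, where limma called no member, were named after their values were seen. In aerocytes, Mef2c, which encodes an activator of Klf2, rose from 1.68 in RA to 2.85 in CS mice (0.53, adjusted p = 0.0360 by limma), and Klf8, another CtBP-binding KLF, rose from 0.408 to 0.604 (0.19, adjusted p = 0.0463). In arterial cells Map3k3, the gene of MEKK3, rose from 1.63 to 2.92 (0.58, adjusted p = 0.0294). Of 10 endothelial KLF2 and KLF4 targets tested in arterial cells, Angpt2, which KLF2 is known to repress, rose from 0.116 to 0.522 (0.44, adjusted p = 0.0253), and the median of the 10 was -0.23, against 0.00 over all genes. Of 9 clock genes in aerocytes Nr1d1 rose (0.80, adjusted p = 0.0370), and of 11 in arterial cells Dbp (0.95, adjusted p = 0.0252) and Tef (0.57, adjusted p = 0.0253) rose. The clock sums did not overlap, between 5.74 and 8.89 in CS and between 3.91 and 5.55 in RA mice in aerocytes, and between 8.69 and 12.7 against 5.34 and 7.82 in arterial cells. Of the tested clock genes, 5 were higher and 4 lower in aerocytes, and 10 were higher and 1 lower in arterial cells. Of 3 glucocorticoid targets in aerocytes Tsc22d3 fell (-0.50, adjusted p = 0.0375), with sums of the list between 7.13 and 10.1 in CS and between 10.98 and 12.8 in RA mice, while in arterial cells none of 4 was called and the sums overlapped. In ciliated cells, 1 of 10 clock genes, Per2, rose (0.20, adjusted p = 0.0427) and 1 of 4 glucocorticoid targets, Zbtb16, fell (-0.19, adjusted p = 0.0263). The part of these genes in the KLF values was not tested.

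Whether the smoke difference of a member was unlike in aerocytes and gCap cells was tested per mouse for the 8 members other than Klf12, with an exact two-sided permutation test that cannot go below p = 0.0286. After adjustment over the 8 members none passed, and since 1 member at the smallest p reaches only 0.229 after adjustment, the design could hardly give a call. Klf10 reached the smallest possible p of 0.0286 (exact permutation test, adjusted p = 0.229), with a CS minus RA difference that was -0.15 in aerocytes relative to gCap cells on the log2 scale (SE 0.0536). For Klf3 the difference between the types was -0.24 (SE 0.0756, exact permutation p = 0.0571, adjusted p = 0.229). For Klf2 it was 0.08 (SE 0.160) and for Klf4 -0.05 (SE 0.132), with an exact permutation adjusted p of 0.914 for each, and these SEs leave room for differences of either sign. For Klf12, given as a description, the log2 level in aerocytes minus that in gCap cells was 1.01, 1.23, 1.56 and 1.79 in CS mice and 1.32, 1.69, 2.15 and 1.69 in RA mice, which overlapped.

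**Figure D5:**
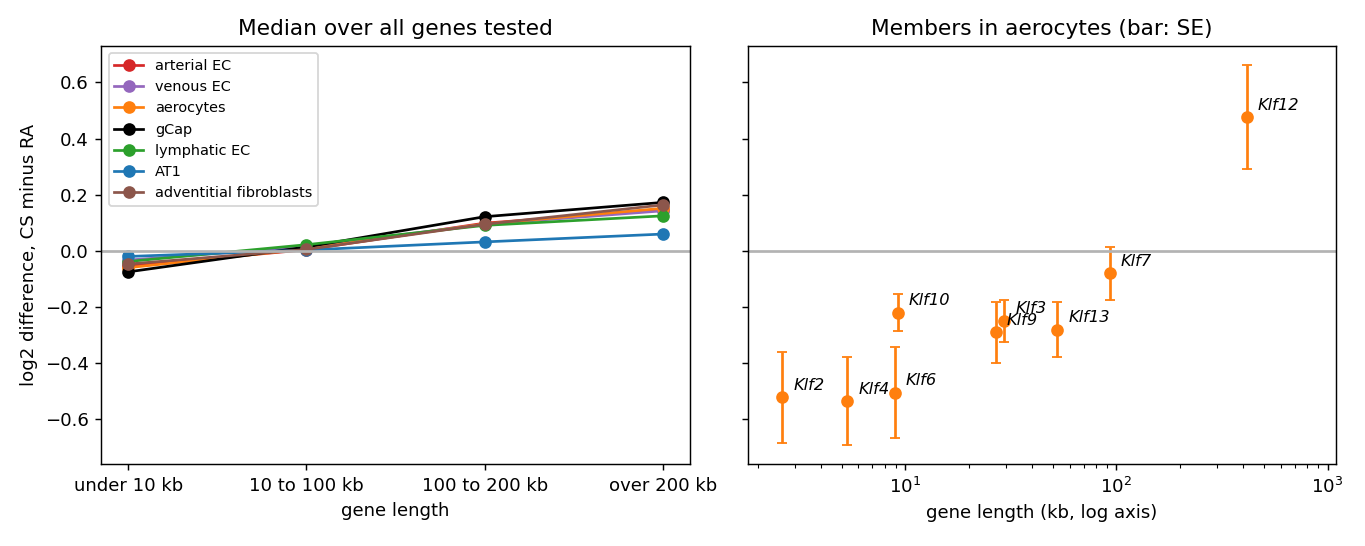
Left, median log2 difference between CS and RA mice over all genes tested, by gene length, in 7 cell types (coloured lines), which climbs in gCap cells from -0.08 under 10 kb to 0.17 over 200 kb. Right, log2 difference of the 9 members in aerocytes (points, bars SE) against gene length on a log axis, from Klf2 at 2.62 kb and -0.52 to Klf12 at 414 kb and 0.48.

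Over all genes, the difference between CS and RA mice moved with gene length, from lower in CS for short genes to higher for long ones. In gCap cells, 358 of 416 genes longer than 200 kb (86.1%) were higher in CS, with a median log2 difference of 0.17, while 243 of 1310 genes shorter than 10 kb (18.5%) were higher, with a median of -0.08. In aerocytes these shares were 88.3% and 23.3%, in adventitial fibroblasts 86.8% and 29.4% and in AT1 cells 66.0% and 39.3%. In aerocytes 27 of 402 long genes had a larger log2 difference than Klf12. In each mouse, the log2 level of each gene minus its mean over the mice was fitted with a smooth trend on gene length. Subtracting this trend moved Klf12 from 0.79 to 0.59 in gCap cells, from 0.48 to 0.30 in aerocytes and from 0.60 to 0.43 in arterial cells. It moved Klf12 from 0.42 to 0.26 in venous cells and from 0.14 to 0.01 in lymphatic cells. Klf2 remained lower in 22 of 22 types, at -0.57 in arterial cells, and Klf9 in AT1 cells stayed at -0.47 (adjusted p = 0.0216 by limma). Klf13 in AT1 cells then passed (-0.32, adjusted p = 0.0460). Spliced and unspliced UMIs cannot be told apart in the deposited values.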

How the data were processed

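Single-cell libraries (10x 3' v3) of 8 mouse lungs were made by the authors, 4 CS and 4 RA. Per the study's methods and the submitters' processing notes, reads were aligned with STAR 2.7.3a (STARsolo) to GRCm38.p6 with GENCODE genes plus eGFP and tdTomato, spliced and unspliced UMIs were kept together, low-quality cells were removed, free RNA was subtracted with SoupX and cell types were named. The deposited expected counts are UMI counts after that subtraction, of which 1.28% are whole (within 1e-06). Their totals per cell run from 1001 to 198966 and match the total in the deposited cell table in all 41106 cells, so the values are not scaled to a fixed depth in spite of the word normalized in the name. The percent of mitochondrial transcripts deposited by the authors was used only to describe libraries.

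Counts of each cell were divided by its total, multiplied to 10000 and averaged per mouse and type with at least 20 cells. Genes with a transcript in 10% or more of a type's cells, in CS or in RA, were fitted with limma 3.58.1 (empirical Bayes with trend) on log2(mean + 1), adjusted by Benjamini-Hochberg within a type, threshold 0.05. edgeR and DESeq2 were run on summed counts, rounded to whole numbers. Named genes were the members, the 3 genes most like each over cell types, and up to 4 genes per list called where a member was called. Listed genes named in gCap, aerocyte, arterial, ciliated and alveolar fibroblast cells were chosen after their values were seen. The members and lists were chosen with earlier results of these data known. The removal of a gene-length trend was added after seeing the data. It was a lowess per mouse and type of each gene's deviation from its mean log2 level over the mice. Gene positions and lengths are from GENCODE M21 (GRCm38). Gene symbols were those of the matrix. Each mouse was 1 library, and counting error and differences between mice are both in the spread.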

Additional observations from a re-analysis of the deposited data

Results flagged for a closer look

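Among the printed values, each group of 4 mice was searched for a mouse far from the other 3 by Dixon's test. It marked 3 of 67 groups, and chance marks about 1 in 20. The CS mouse C5 had 2.14 Klf2 transcripts per 10000 in alveolar fibroblasts, where the other 3 CS mice lay between 1.13 and 1.24, and 5.67 in ciliated cells, where the others lay between 1.39 and 1.94. The CS mouse C2 had 0.448 Klf10 transcripts per 10000 in aerocytes, where the others lay between 0.510 and 0.516.

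For Klf10, the smoke difference in aerocytes minus that in gCap cells was -0.15 on the log2 scale, with an exact two-sided permutation p of 0.0286 for 4 against 4 mice, the smallest the design allows, and 0.229 after adjustment over 8 members, so a difference between the types was not shown.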

How the results depend on the processing

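Outside gCap cells, the 2 member calls (both lower) became 6 with genes in at least 25% of cells, 5 with summed counts, 5 with edgeR, 18 with DESeq2, 1 with sequencing lane as a block, and 0 without a filter on genes or with adjustment over all types together; leaving out each mouse gave 0 to 4. Over all genes in the types other than gCap, lower calls moved as well, from 632 of 165706 pairs to 865 of 97858 with the 25% filter, 727 with summed counts, 934 with edgeR, 2087 with DESeq2, 321 with the lane block, 63 without the filter and 311 with the joint adjustment. No alternative called a member higher there. In gCap cells, whose contrast helped to choose the members and from whose count nothing is read, the 3 called members became 0 without the filter, with the lane block, with adjustment over all types together or with the gene-length trend removed. They became 6 with DESeq2, and leaving out mice gave 0 to 4. Of all genes there, limma called 0 of 30479 without the filter and 0 of 6556 with the lane block, with 4176 and 2121 at an unadjusted p under 0.05. With the filter and no block, limma called 412 higher and 260 lower, edgeR on summed counts 617 and 660, and DESeq2 878 and 859. The Klf12 difference in gCap cells of 0.79 was 1.16 with a pseudocount of 0.1, 1.24 with edgeR and 1.25 with DESeq2, and between 0.68 and 0.92 without each mouse. Listed genes outside gCap cells gave 20 lower and 17 higher calls, 51 lower with DESeq2, 6 lower and 1 higher without the filter, and 11 and 10 higher with the lane block and with the joint adjustment; leaving out mice gave 9 to 20 lower and 4 to 15 higher. The causes were not tested. Klf2 was lower in all 19 types with at least 50 cells per mouse, in 20 to 22 of 22 without single mice and in 22 of 22 under the other alternatives. Of the member and type pairs followed one by one outside gCap cells, none turned sign, whereas other Klf2 differences near 0 did, as these counts show. The aerocyte against gCap comparison gave 0 calls under each alternative, which says nothing of stability, since the smallest p it allows hardly passes adjustment over 8 members. All 9 members kept their highest type with summed counts, and 20 of 27 most alike genes stayed with a pseudocount of 0.1. Replicate numbers were given in accession order and pair no mice, but each lane held 1 CS and 1 RA mouse, so the lane block above is the paired fit; it ended the call of Klf4 in adventitial fibroblasts (adjusted p = 0.139) and kept that of Klf9 in AT1 cells (0.0457). Members at few transcripts per 10000 limit what the depth can show.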
